A study of Neotoma stephensi and Rattus norvegicus with 6 samples.

Results

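Aquaporins are membrane channels that let water cross cell membranes along osmotic gradients. The aquaglyceroporins among them (Aqp3, Aqp7 and Aqp9) also pass glycerol and other small uncharged solutes. In stratified squamous epithelium Aqp3 is the channel best known for carrying water and glycerol through keratinocytes, and Aqp1 is the classic water channel of red cells and of the endothelium of many vessels. The 8 genes Aqp1, Aqp3, Aqp4, Aqp5, Aqp7, Aqp8, Aqp9 and Aqp11 were chosen by gene symbol alone, and 7 of them were among the 15481 mouse genes in the count files. Aqp4 was not analysed here.

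The counts describe the nonglandular forestomach (fornix ventricularis) of 3 female Stephens' woodrats (Neotoma stephensi), wild-caught herbivores with a dense foregut microbiota, and 3 female Sprague Dawley lab rats (Rattus norvegicus), purchased omnivores without one. Woodrats ate juniper foliage and lab rats ate chow, neither species was given any agent or genetic change, and ages are not given in the sources used here. The labels call all animals virgin, whereas the methods say this was unknown for the woodrats. Species, diet, origin, housing and distance from the mouse transcripts used for alignment therefore cannot be told apart in any difference given here.

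Libraries held between 5439642 and 7932637 counted reads, and abundances are given as CPM (the share of a library's counts scaled to a common total) after TMM normalization, which corrects library totals for a few very abundant transcripts. Values for single animals are listed in the order 1, 2, 3 of each species. A gene with 3 reads stood between 0.355 and 0.586 CPM, which was taken as the smallest abundance a library could show. All 10 markers of stratified squamous epithelium, among them Krt5, Krt14 and Trp63, were present in both species, as the labelled tissue requires. Of 8 gastric gland markers in the files, 6 had no read in any lab rat, and the summed level of all 8 was low in every animal, from 6.74 to 12.9 CPM. Every gene in the files had woodrat reads while 809 had none in lab rats, so a gene read in lab rats alone is not represented.

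Aqp9, Aqp3, Aqp1 and Aqp11 each had a lower mean abundance in the woodrats, by 4.14, 3.54, 2.73 and 1.97 times. Aqp9 passed the test and the other 3 did not. Aqp3 held the most aquaporin reads in every animal, though only by 26 to 25 for Aqp1 in woodrat 1, and varied 22.2 times among the woodrats. Aqp5 and Aqp7 had a few reads, most of them in woodrats, and Aqp8 was barely read at all.

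Of the 7 aquaporins in the files, 4 (Aqp1, Aqp3, Aqp9 and Aqp11) had at least 1 CPM in at least 3 animals and were tested with edgeR's quasi-likelihood F-test, adjusted by the Benjamini-Hochberg method over all 12603 genes tested. These 4 in fact reached 1 CPM in all 6 animals, so none of them entered through one species alone. At a false discovery rate (FDR) below 0.01, 1 of the 4 was differentially abundant, against 20.0% of all tested genes in either direction and 9.71% toward lab rats. That share is close to the background and is no property of aquaporins as a group. The log2 fold changes, taken as woodrat minus lab rat, were negative for all 4, with a median of -1.64 beside 0.03 over all tested genes. In 3 of the 4 every lab rat lay above every woodrat, as it did for 27.4% of tested genes, while the species were apart in one direction or the other for 56.2%.

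**Figure D1:**
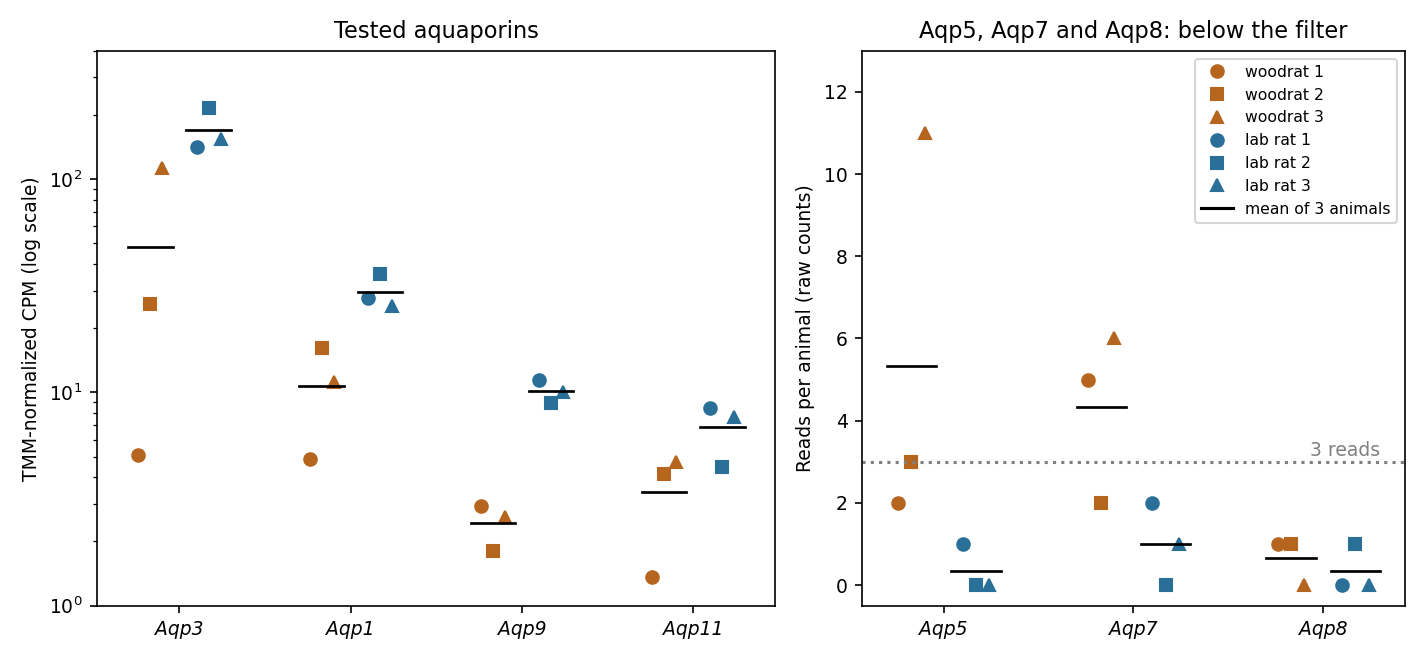
Abundance of each aquaporin in each animal, with TMM-normalized CPM on a log axis for the 4 tested channels (left) and raw reads for the 3 channels below the filter (right). Points are animals, black lines are means of 3 animals and the dotted line marks 3 reads. The woodrat points for Aqp3 run from 5.08 to 113 CPM, and those for Aqp9 stay between 1.80 and 2.93 CPM.

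Aqp9 (ENSMUSG00000032204.12), an aquaglyceroporin best known for glycerol uptake in liver and also made by leukocytes, had 15, 13 and 22 reads in the woodrats, against 92, 54 and 52 in the lab rats. This corresponds to 2.93, 1.80 and 2.61 CPM in the woodrats, against 11.4, 8.93 and 10.02 CPM in the lab rats. The animals of each species lay close together and the species did not overlap. Woodrats averaged 2.45 ± 0.58 CPM and lab rats 10.1 ± 1.2 CPM (SD, n = 3 each). The log2 fold change was -2.05 (standard error 0.35, 95% interval -2.84 to -1.26, FDR = 0.0031, edgeR quasi-likelihood test), or 4.14 times higher in lab rats. Counting error alone gives a coefficient of variation of 24.5% at the woodrats' mean read number and 12.3% at that of the lab rats, and the observed values were 23.7% and 12.3%. The spread between animals was thus no wider than read counting would give.

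The call for Aqp9 rested on few reads, and it was lost in 3 of the 6 fits that each left out 1 animal. Without woodrat 2 the FDR was 0.0161, without lab rat 1 it was 0.0164 and without lab rat 2 it was 0.0115 (edgeR quasi-likelihood test). The log2 fold change stayed between -2.18 and -1.91 in these 6 fits. Neutrophil markers also had a lower sum in each woodrat than in each lab rat, although woodrat 3 and lab rat 3 were nearly level. The 6 neutrophil markers in the files summed to between 3.52 and 14.0 CPM in woodrats and between 14.3 and 27.3 CPM in lab rats. Of the 3 tested, Ncf4, a subunit of the phagocyte oxidase, was past the threshold toward lab rats (log2 fold change -3.07, FDR = 0.00321, edgeR quasi-likelihood test). That is 33.3%, against 20.0% of all tested genes and 9.71% toward lab rats. Ncf4 reached 1 CPM in every lab rat but only in woodrat 3, so it entered the test through the lab rats. Cxcr2 held the most neutrophil marker reads in every animal but lab rat 3. The species overlapped for Cxcr2 and Ncf1, and neither was called (log2 fold changes -1.09 and -0.55). Csf3r, Mpo and Fpr1 had at most 6 reads in any animal, and those of Fpr1 were all in woodrats. Per 1000 neutrophil marker reads, Aqp9 had 833, 224 and 186 reads in the woodrats, against 451, 327 and 703 in the lab rats. The species overlapped on this scale, and the part of leukocytes in the Aqp9 result was not tested. Per 1000 reads of the 10 squamous epithelium markers, Aqp9 had 0.596, 0.185 and 0.209 reads in the woodrats, against 1.80, 1.39 and 1.19 in the lab rats, and the species did not overlap. Against single markers, however, the ratio separated the species for 4 of the 10 and overlapped for the other 6. Aqp9 by itself already separated the species, so a separated ratio may repeat that. In bulk tissue such as this, fewer cells of a type and less RNA per cell cannot be told apart.

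The tested genes whose log2 CPM followed that of Aqp9 most closely over the 6 animals were Cd14, a coreceptor for bacterial lipopolysaccharide, Slc30a5, a zinc transporter, and Zfp213, a zinc finger gene. Their Pearson correlations with Aqp9 were 0.998, 0.997 and 0.997. With 6 animals in 2 species such values are common, and 634 of the 12602 other tested genes were above 0.95. Cd14 had 1.56, 0.833 and 1.54 CPM in the woodrats, against 7.69, 5.46 and 6.55 in the lab rats. All 6 points share the library totals and the species difference, so the correlations are given as a description.

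Aqp3 (ENSMUSG00000028435.8), the keratinocyte aquaglyceroporin, had 26, 187 and 950 reads in the woodrats, against 1143, 1302 and 797 in the lab rats. The normalized values were 5.08, 26.0 and 113 CPM in the woodrats, against 142, 215 and 154 in the lab rats. Every woodrat lay below every lab rat, but woodrat 3 came near the lab rats while woodrat 1 was far below them. Woodrats averaged 47.9 ± 57.0 CPM and lab rats 170.2 ± 39.5 CPM (SD, n = 3 each). The log2 fold change of -1.82 did not pass the threshold, and its 95% interval ran from -3.74 to 0.09 (standard error 0.84), with FDR = 0.115 in edgeR's quasi-likelihood test. The highest woodrat was 22.2 times the lowest, against 1.52 times among the lab rats. Counting error would give a coefficient of variation of 5.08% in the woodrats, where 119% was observed.

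One animal decided whether Aqp3 was called. Without woodrat 3 the log2 fold change was -3.43 and the FDR was 0.00379 (edgeR quasi-likelihood test), and without woodrat 1 they were -1.30 and 0.103. In the other 4 fits that left out an animal, the FDR was between 0.147 and 0.256.

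**Figure D2:**
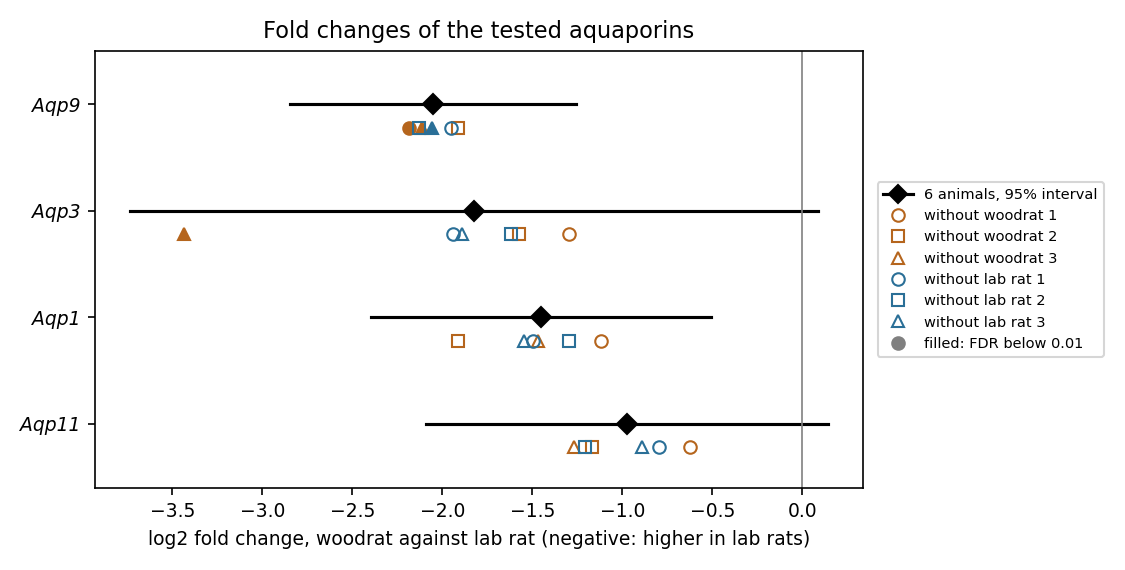
Log2 fold changes of the 4 tested aquaporins, woodrat against lab rat, with 95% intervals from the fit over 6 animals (diamonds and lines) and, below each, the 6 values obtained when 1 animal was left out (filled where the FDR was below 0.01). All values lie below 0, and the value for Aqp3 moves to -3.43 without woodrat 3.

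The spread of Aqp3 among woodrats ran beside the spread of the squamous epithelium markers. All 10 markers were lowest in woodrat 1 and 9 of the 10 were highest in woodrat 3. Their highest woodrat value was between 1.57 times (Krt14, a basal keratin) and 30.3 times (Trp63, the basal cell transcription factor) the lowest, a range that holds the 22.2 times of Aqp3. The plakophilin gene Pkp1, a desmosome component, had 26.6, 115 and 598 CPM in woodrats 1, 2 and 3. None of the 10 markers was differentially abundant between the species, against 20.0% of all tested genes, and their median log2 fold change was -0.26. Of the 10, 6 leaned toward lab rats and 4 toward woodrats. Standard errors were as large as 0.97 (Trp63), so the lack of calls does not show equal levels. Perp alone separated the species, lower in every woodrat (log2 fold change -1.04). Smooth muscle markers ran the other way among the woodrats, with 111414, 55345 and 35263 CPM summed over 7 genes in woodrats 1, 2 and 3, against 9412 to 16771 CPM in lab rats. The part of tissue composition in the Aqp3 values was not tested, but ratios of Aqp3 to the markers, computed after its values were seen, can be given.

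Per 1000 reads of the 10 squamous markers, Aqp3 had 1.03, 2.66 and 9.01 reads in the woodrats, against 22.4, 33.6 and 18.3 in the lab rats. The species did not overlap on this scale, with averages of 4.23 ± 4.21 for woodrats and 24.7 ± 7.9 for lab rats (SD, n = 3 each). The exact two-sided permutation test of the log2 ratios gave p = 0.1, below which a design of 3 against 3 animals cannot go. Most of these marker reads came from Krt15, so the markers were also taken one at a time. The ratio of Aqp3 to the marker was higher in every lab rat than in every woodrat for 8 of the 10. Aqp3 by itself already separated the species, so ratios to markers that varied little among woodrats largely repeat that. The species overlapped for Trp63 and Dsg3, a desmosomal cadherin, which varied 30.3 and 22.2 times among the woodrats. They did not overlap for Pkp1, which varied 22.5 times. Itga6, an integrin subunit of basal cells, gave the narrowest range of woodrat ratios among the 10. Aqp3 had 2.17, 2.46 and 2.49 reads per Itga6 read in the woodrats, against 4.97, 8.98 and 27.5 in the lab rats. The closeness of the woodrat values follows from picking Itga6 by that range. Itga6 had only 12 reads in woodrat 1 and 29 in lab rat 3.

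**Figure D3:**
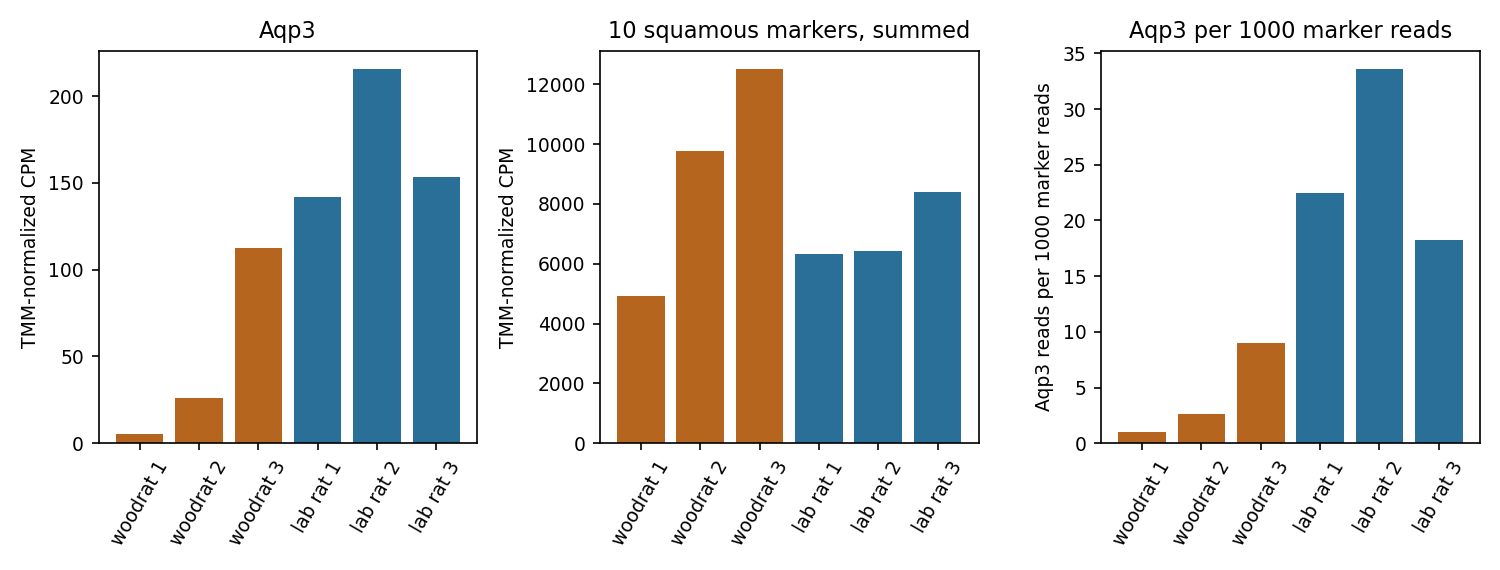
Aqp3 in CPM (left), the summed CPM of 10 squamous epithelium markers (middle) and Aqp3 reads per 1000 marker reads (right), with 1 bar for each animal. Woodrat 1 is the lowest animal in all 3 panels, and on the right the woodrats reach at most 9.01 while the lab rats start at 18.3.

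Aqp1 (ENSMUSG00000004655.5), the endothelial and red cell water channel, had 25, 117 and 94 reads in the woodrats, against 224, 216 and 132 in the lab rats. The normalized values were 4.88, 16.2 and 11.1 CPM in the woodrats, against 27.8, 35.7 and 25.4 in the lab rats. All woodrats lay below all lab rats, with woodrat 1 again the lowest. On average the channel stood at 10.8 ± 5.7 CPM in the woodrats, against 29.7 ± 5.4 CPM in the lab rats (SD, n = 3 each). Its log2 fold change was -1.45 (standard error 0.42, 95% interval -2.40 to -0.50), and its FDR of 0.0241 in edgeR's quasi-likelihood test missed the threshold of 0.01. At an FDR below 0.05, 39.9% of all tested genes would be called, 18.9% toward lab rats, and Aqp1 would join Aqp9. None of the 6 fits without 1 animal called Aqp1 either, with FDR values from 0.0197 to 0.0787.

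Endothelial markers were also lower in woodrats for the most part. Of 12 tested, 11 had a negative log2 fold change, as did 6171 of all 12603 tested genes, and the median of the 12 was -0.87. Each lab rat lay above each woodrat for 6 of the 12, as for 27.4% of tested genes. The species overlapped for Pecam1, Cdh5, Kdr, Flt1, Vwf and Cldn5, with log2 fold changes of 0.46 for Cdh5 and -0.02 for Vwf. Of the 12, 2 were differentially abundant, both toward lab rats (16.7%, against 20.0% of all tested genes and 9.71% toward lab rats). These were Tie1 (log2 fold change -2.26, FDR = 0.00104), a receptor tyrosine kinase of endothelial cells, and Esam (-1.63, FDR = 0.00465), an endothelial adhesion molecule (edgeR quasi-likelihood test). The 12 markers summed to between 115 and 206 CPM in the woodrats, against 276 to 314 CPM in the lab rats. Per 1000 endothelial marker reads, Aqp1 had 42.4, 78.8 and 69.9 reads in the woodrats, against 100.6, 124 and 81.1 in the lab rats. The species did not overlap, although woodrat 2 and lab rat 3 were nearly level (exact permutation test of the log2 ratios, two-sided, p = 0.1, the smallest possible). Taken against single markers, the ratio separated the species for 6 of the 12, each time higher in lab rats, and overlapped for the other 6. Aqp1 by itself already separated the species, so a separated ratio may repeat that.

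Red cell markers had fewer reads. Of the 3 in the files, Slc4a1 (the anion exchanger of red cells) and Hemgn had at most 2 reads in any animal. Alas2, the first enzyme of haem synthesis in erythroid cells, had 4, 4 and 5 reads in the woodrats, against 41, 31 and 27 in the lab rats. It was the only 1 of the 3 tested and was called (log2 fold change -2.99, FDR = 0.00143, edgeR quasi-likelihood test), against 20.0% of all tested genes and 9.71% toward lab rats. Alas2 reached 1 CPM in the lab rats alone, so it entered the test only through the species where it is high. Per 1000 reads of these 3 markers, Aqp1 had 5000, 19500 and 13429 reads in the woodrats, against 5333, 6750 and 4714 in the lab rats. The species overlapped, with woodrats 2 and 3 above every lab rat, and the woodrat ratios rest on very few marker reads. The part of vessels and blood in the Aqp1 values was not tested.

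Aqp11 (ENSMUSG00000042797.8), an unorthodox aquaporin of intracellular membranes, had 7, 30 and 40 reads in the woodrats, against 68, 27 and 40 in the lab rats. The normalized values were 1.37, 4.16 and 4.74 CPM in the woodrats, against 8.44, 4.47 and 7.70 in the lab rats. The species overlapped, since woodrat 3 lay above lab rat 2. The averages were 3.42 ± 1.80 CPM for woodrats and 6.87 ± 2.11 CPM for lab rats (SD, n = 3 each), and the log2 fold change was -0.97 (standard error 0.49, 95% interval -2.09 to 0.14, FDR = 0.144, edgeR quasi-likelihood test). The interval leaves room for a difference as large as that of Aqp9. Leaving out 1 animal at a time gave log2 fold changes from -1.27 to -0.63, the weakest without woodrat 1, and none of these fits called the gene.

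Aqp5, Aqp7 and Aqp8 had too few reads for the test and are given by their counts. Every gene in the files had woodrat reads, so a lean toward woodrats at such low counts may come in part from how genes were listed. Aqp5 (ENSMUSG00000044217.15), the apical water channel of salivary and other secretory glands, had 2, 3 and 11 reads in the woodrats, against 1, 0 and 0 in the lab rats. Only woodrat 3 had more than 3 reads. The pooled abundance was 14.9 times higher in woodrats, with an exact 95% interval of 2.31 to 623 that covers counting error only and not the spread between animals. The exact permutation test of log2 CPM gave p = 0.1, two-sided, the smallest p possible.

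Gastric glands lie outside the forestomach. Of their 8 markers in the files, all but Atp4a had a higher mean CPM in woodrats. Pgc, Muc5ac, Muc6, Tff2, Gkn1 and Gkn2 had no lab rat reads. Apart from Muc5ac, these held at most 9 reads in any animal. Genes without woodrat reads are not in the files, which favours this direction at low counts. Muc5ac, the mucin of gastric surface cells, had 17, 12 and 33 reads in woodrats 1, 2 and 3 and 0 in every lab rat. Woodrat 3 held the most reads of both Muc5ac and Aqp5. Of the 2 markers tested, Muc5ac was called (log2 fold change 7.32, FDR = 0.00305, edgeR quasi-likelihood test). That is 50%, against 20.0% of all tested genes, but Muc5ac reached 1 CPM in the woodrats alone. It entered the test only through the species where it is high, so its call adds nothing to its counts. Atp4a, a subunit of the parietal cell proton pump, went the other way, with 6.05, 5.69 and 5.69 CPM in the woodrats, against 8.31, 9.76 and 6.74 CPM in the lab rats. Each lab rat lay above each woodrat for Atp4a, but the difference did not pass the threshold (log2 fold change -0.51, FDR = 0.216, edgeR quasi-likelihood test). The summed CPM of the 8 markers overlapped between the species. The part of glandular tissue in the Aqp5 reads was not tested.

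Aqp7 (ENSMUSG00000028427.12), the glycerol channel of adipocytes, had 5, 2 and 6 reads in the woodrats, against 2, 0 and 1 in the lab rats. Each woodrat had a higher CPM than each lab rat, but woodrat 2 (0.278 CPM) and lab rat 1 (0.248 CPM) were nearly level, and both lay below what 3 reads would show. The pooled ratio was 4.03 in favour of woodrats, with an exact interval of 1.11 to 22.03 for counting error only (exact permutation test of log2 CPM, p = 0.1, the smallest p possible). Aqp8 (ENSMUSG00000030762.10), a water channel of the colon and of glands, had 2 reads over the woodrats and 1 over the lab rats. It was not detectable in either species at this depth, and no ratio is given.

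Of the 4 other mouse aquaporins, Mip, the main channel of lens fibres, was in the files, with 3, 2 and 4 reads in the woodrats and 0 in each lab rat. A count of 0 over the 3 lab rats allows up to 0.155 CPM, so the woodrat abundance of 0.433 CPM was at least 2.79 times higher than that limit, a figure that leaves out the counting error of the 9 woodrat reads. Every gene in the files had woodrat reads, so a gene this low could be listed only with reads in woodrats. The ratio depends on that condition and is no clean measure of a species difference. Aqp2, Aqp6 and Aqp12 were not analysed here.

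The channels also differed in how they divided the aquaporin reads within an animal. The 7 channels together had 81, 353 and 1123 reads in the woodrats, against 1530, 1600 and 1022 in the lab rats. Aqp3 took 32.1%, 53.0% and 84.6% of them in the woodrats, against 74.7%, 81.4% and 78.0% in the lab rats. The lab rats agreed closely (78.0% ± 3.3, SD, n = 3), whereas the woodrats spread widely (56.6% ± 26.4, SD, n = 3) and overlapped them, with woodrat 3 above all lab rats. In woodrat 1, the animal with the fewest aquaporin reads, the 95% Wilson interval of the Aqp3 share was 22.9% to 42.9%, and it did not reach the 47.8% at which the interval of woodrat 2 began. These intervals cover counting error only. Aqp1 had the next largest share in each of the 6 animals, from 8.37% to 33.1%. In woodrat 1 Aqp3 and Aqp1 were level within counting error, with 26 and 25 reads. The shares are of reads and were not divided by transcript length, so they do not rank the channels by abundance.

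**Figure D4:**
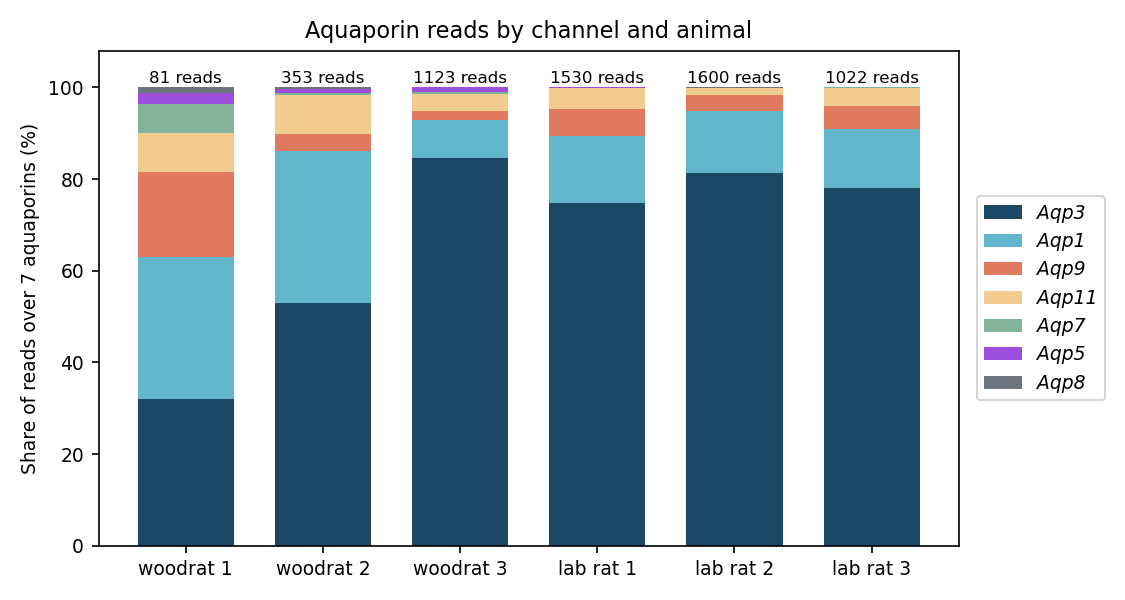
Share of the reads over 7 aquaporins taken by each channel, in percent, with 1 bar per animal and the number of aquaporin reads above it. The Aqp3 part runs from 32.1% in woodrat 1 to 84.6% in woodrat 3 and stays between 74.7% and 81.4% in the lab rats.

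Summed over the 7 channels, the normalized abundance was 15.8, 49.0 and 133 CPM in the woodrats, against 190, 265 and 197 CPM in the lab rats. Without Aqp3 the sums were 10.7, 23.0 and 20.5 CPM and 48.0, 49.3 and 43.3 CPM. In both sums each woodrat lay below each lab rat, and without Aqp3 the animals of a species were closer together (18.1 ± 6.5 CPM and 46.9 ± 3.1 CPM, SD, n = 3).

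Genes that make, use or release glycerol, the solute of the aquaglyceroporins, showed no common direction. Of 14 tested, 1 was differentially abundant (7.14%, against 20.0% of all tested genes), and the median log2 fold change was -0.01. The gene was Mgll, the monoglyceride lipase that frees glycerol from its last fatty acid, with 69.5, 55.8 and 39.8 CPM in the woodrats, against 10.1, 15.7 and 6.16 in the lab rats. Every woodrat lay above every lab rat (log2 fold change 2.36, standard error 0.38), with FDR = 0.00264 in edgeR's quasi-likelihood test. Without woodrat 2 its FDR was 0.0116 and without lab rat 1 it was 0.0127. The number called was 0 without woodrat 2 and 2 without woodrat 3, where Abhd5, the cofactor of the triglyceride lipase Pnpla2, joined it on the lab rat side. The acyltransferase gene Agpat9 had a log2 fold change of 2.84 over all 6 animals (FDR = 0.0189) and was called without lab rat 1 (FDR = 0.00768) and with DESeq2 (adjusted p = 0.000433). The glycerol kinase gene Gk, which traps glycerol in the cell, had 2, 8 and 13 reads in the woodrats, against 7, 4 and 3 in the lab rats, too few for the test.

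Among 18 tested genes of cell volume control, 3 were differentially abundant, all toward woodrats (16.7%, against 20.0% of all tested genes and 10.3% toward woodrats). Nfat5, the transcription factor of the response to hypertonic stress, had 12.3, 27.9 and 22.2 CPM in the woodrats, against 3.85, 2.48 and 1.35 in the lab rats (log2 fold change 2.98, FDR = 0.00235, edgeR quasi-likelihood test). Wnk1, a kinase that senses chloride and cell volume, had 375, 320 and 656 CPM in the woodrats, against 89.8, 84.0 and 32.6 in the lab rats (log2 fold change 2.71, FDR = 0.00311, same test). Slc12a2, the sodium, potassium and chloride cotransporter that Wnk kinases activate, had a log2 fold change of 2.80 (FDR = 0.00105). In all 3 genes the species did not overlap. Slc12a2 stayed past the threshold in each of the 6 fits without 1 animal. The number called fell to 1 without lab rat 2, when Nfat5 (FDR = 0.0117) and Wnk1 (FDR = 0.0116) were lost, and Nfat5 was also lost without woodrat 2 or lab rat 3. The median log2 fold change of the 18 genes was 0.73, beside 0.03 over all tested genes. The 5 Lrrc8 genes, which encode the subunits of the volume-regulated anion channel, did not pass the test, with log2 fold changes from -1.32 for Lrrc8e to 0.79 for Lrrc8b.

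Of 9 tested genes whose products anchor, move or phosphorylate aquaporins, 3 were differentially abundant (33.3%, against 20.0% of all tested genes). Dmd, which encodes dystrophin, part of the membrane complex that holds Aqp4 in place in muscle and glia, had 223, 230 and 120 CPM in the woodrats, against 11.3, 19.0 and 6.74 in the lab rats (log2 fold change 3.95, standard error 0.45, FDR = 0.000782, edgeR quasi-likelihood test). Smooth muscle cells also make dystrophin, their 7 markers were each higher in every woodrat than in every lab rat, and their part in the Dmd difference was not tested. Prkacb, a catalytic subunit of protein kinase A, was higher in woodrats (log2 fold change 1.43, FDR = 0.00505), and Vta1, a protein of the endosomal sorting pathway that binds aquaporins, was higher in lab rats (-1.32, FDR = 0.00387). Dmd alone passed the threshold without woodrat 1, woodrat 2, lab rat 1 or lab rat 2. Vta1 joined it without lab rat 3, and all 3 were called without woodrat 3. Ezr, the membrane linker ezrin, had a log2 fold change of 0.02 (standard error 0.48).

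**Figure D5:**
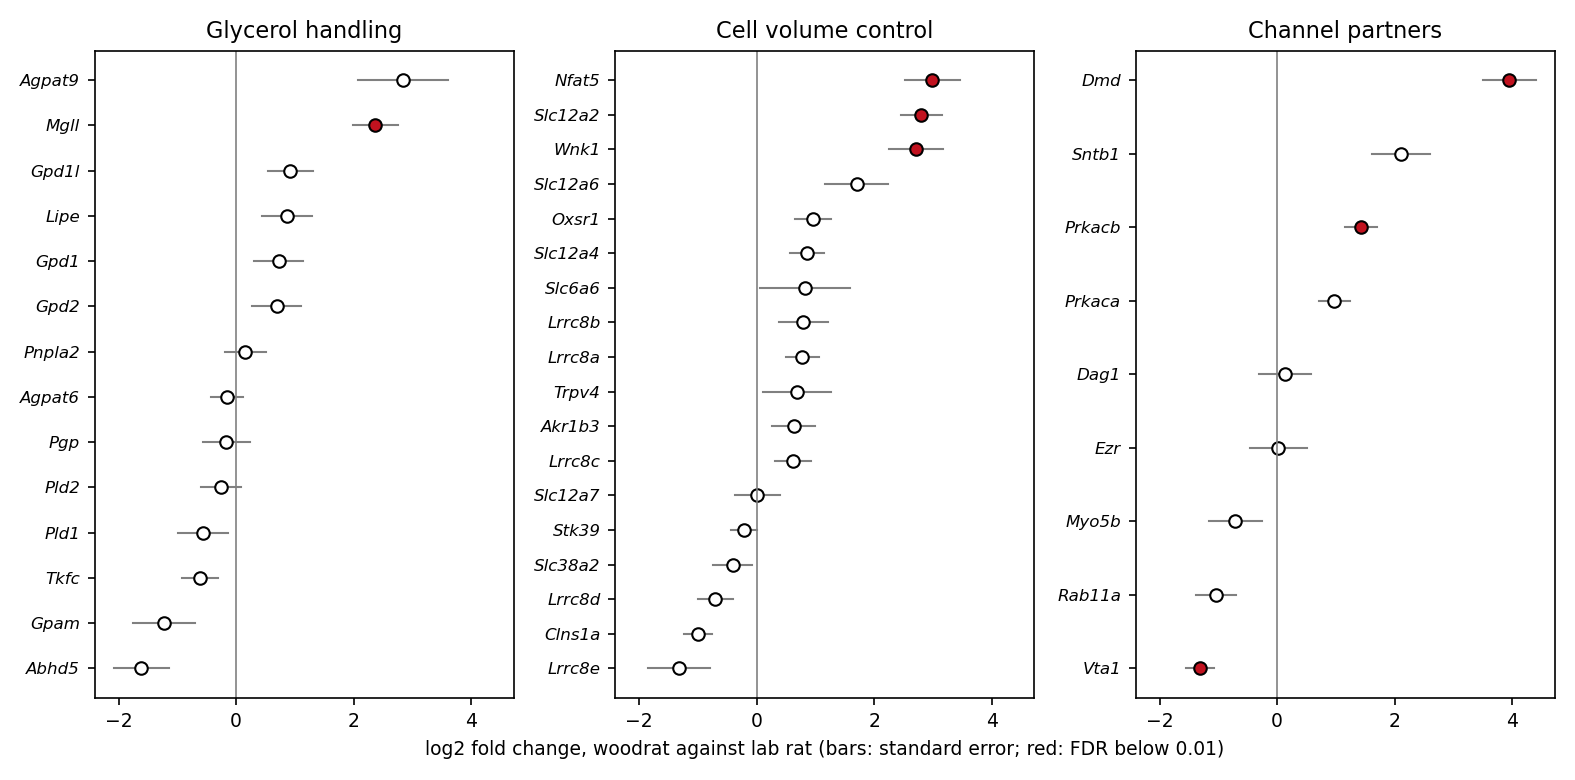
Log2 fold changes, woodrat against lab rat, for the tested genes of glycerol handling, cell volume control and aquaporin partners, with bars of 1 standard error and filled points where the FDR was below 0.01. The 7 filled points are Mgll, Nfat5, Slc12a2, Wnk1, Dmd and Prkacb on the woodrat side and Vta1 on the lab rat side.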

How the data were processed

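The authors made strand-specific polyA libraries, trimmed read pairs (Trimmomatic), joined those that overlapped (FLASH), aligned the result (cross_match) to GENCODE M7 mouse coding transcripts, left out mouse genes prone to multiple alignment and deposited raw counts of uniquely assigned reads per gene, without normalization. The labels name mm9 as a build, and tool versions are not given in the sources used here. Counts were joined by gene identifier with pandas 2.3.3. In R 4.3.3, a gene was tested if 3 or more animals reached 1 CPM, and TMM factors and the quasi-likelihood F-test (the method used before edgeR 4, species as the only term, prior count 0.125) came from edgeR 4.0.16, with calls at an FDR below 0.01 as in the study's methods. A standard error is the size of the log2 fold change divided by the square root of F. Correlations and permutation tests used log2 CPM with a prior count of 2. Permutation tests and intervals used scipy 1.17.1. Scripts were tested on simulated counts.

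The aquaporins and the lists were chosen with earlier results of these data known. Named are all aquaporins, each called gene of the glycerol, cell volume and partner lists, and the 3 tested genes most correlated with a called aquaporin. Other genes were named after their values were seen. One gene of the partner list is not reported here. Each animal is 1 replicate, as the labels give it. The alternatives were a filter at 5 CPM, no filter, DESeq2 size factors, total counts, the edgeR 4 method, the replicate number as a block, robust estimation, DESeq2 1.42.0, an FDR of 0.05, a prior count of 2 and each animal left out in turn.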

Additional observations from a re-analysis of the deposited data

How the results depend on the processing

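All 4 tested aquaporins kept their direction in each of 15 alternatives. Log2 fold changes ran from -2.18 to -1.91 for Aqp9, from -3.43 to -1.30 for Aqp3, from -1.91 to -1.12 for Aqp1 and from -1.27 to -0.63 for Aqp11. Aqp9 passed an FDR of 0.01 in 11 of the 15. The number of aquaporins called, 1 over all animals, was 2 with DESeq2 (Aqp1 at an adjusted p of 0.00352 joined Aqp9), 2 at an FDR below 0.05, and from 0 to 2 with 1 animal left out. Of the glycerol genes, 3 were called with DESeq2, 3 at an FDR below 0.05 and from 0 to 2 with 1 animal left out. Of the cell volume genes, 5 were called with DESeq2, 7 at an FDR below 0.05 and from 1 to 3 with 1 animal left out. Over all genes, 2516 were called, against 3916 with DESeq2, 5026 at an FDR below 0.05 and from 898 to 2626 with 1 animal left out. The cause of these changes was not tested, apart from the looser threshold.

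The animals share replicate numbers across species. Deviations from the species mean correlated at -0.289 to -0.0881 over the 3 same-numbered pairs, against -0.0641 to 0.318 over the 6 other pairs. With 3 animals per species these values depend on each other, so they cannot settle whether the numbers mark a pairing. With the replicate block, 0 aquaporins (Aqp9 at an FDR of 0.0170), 1 glycerol gene, 1 cell volume gene and 716 genes in all were called.

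With no filter, the FDR was 0.0402 for Aqp5, 0.147 for Aqp7 and 0.741 for Aqp8 (edgeR quasi-likelihood test). The mean Aqp3 share of aquaporin reads was 60.2% in woodrats and 80.7% in lab rats without Aqp11, and from 42.5% to 68.8% and from 76.3% to 79.7% with 1 animal left out. Shares per transcript length were not run, since no lengths were used here.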

Other observations

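Of 8 adipocyte markers, which accompany Aqp7 in fat, 4 were in the files. They summed to between 21.2 and 27.7 CPM in woodrats and between 29.8 and 76.7 CPM in lab rats. Most of each sum came from Fabp4, with 13.5 to 21.5 CPM in woodrats and 25.1 to 70.9 CPM in lab rats. Neither of the 2 tested passed an FDR of 0.01, against 20.0% of all tested genes. They leaned opposite ways (log2 fold change -1.49 for Fabp4 and 0.17 for Lpl). Cidec and Plin1 overlapped between the species. The part of fat in the Aqp7 reads was not tested. Plin1, the coat protein of lipid droplets, had 2, 1 and 2 reads in the woodrats, against 27, 0 and 7 in the lab rats.

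Of 5 enteric glia markers tested, 1 passed the threshold (20%, against 20.0% of all tested genes and 10.3% toward woodrats). It was Gfap, with 25, 84 and 12 reads in the woodrats, against 1, 2 and 1 in the lab rats (log2 fold change 4.72, FDR = 0.00567, edgeR quasi-likelihood test). Gfap reached 1 CPM in the woodrats alone, so it entered the test only through them. S100b, another glial gene, had a log2 fold change of -1.62 (FDR = 0.0238). Of 4 skeletal muscle markers tested, 1 passed (25%, against 20.0% of all tested genes and 10.3% toward woodrats). It was Ckm, a creatine kinase also made in other muscle, higher in woodrats (3.11, FDR = 0.00141, edgeR quasi-likelihood test). Actn3 leaned the same way (0.76), but the species overlapped. Tnnt3 (-2.06, FDR = 0.0321) and Myh4 (-3.13, FDR = 0.0147, same test) were higher in every lab rat than in every woodrat. So were the untested Myh1, Myh2 and Mylpf. The myosin gene Myh4 had at most 4 reads in a woodrat and 10, 18 and 13 reads in lab rats 1, 2 and 3. It reached 1 CPM in the lab rats alone.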
